A study of Mus musculus with 2 samples.

Results

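A set of 10 genes of calcium-dependent signalling was followed in the gastrocnemius, the fast calf muscle, of young mice. They are the 4 genes of the calcium/calmodulin-dependent kinase CaMKII (Camk2a, Camk2b, Camk2d, Camk2g), 3 genes of the phosphatase calcineurin (Ppp3ca, Ppp3cb, Ppp3r1), the transcription factors Nfatc1 and Nfatc3, and the calcineurin regulator Rcan1. They were chosen by name, as 10 of the 55536 genes of the annotation, and all 10 matched exactly 1 gene identifier. The series held a single group of 2 total RNA libraries, replicates 1 and 2, from B6CASTF1/J females aged 14 days. B6CASTF1/J mice are first-generation hybrids of C57BL/6J and CAST/EiJ, with no transgene or treatment named. The labels describe both libraries as from 3 females, but the tissue text of replicate 2 names a single female, so whether a library holds 1 animal or a pool was not clear, and the spread between the libraries may be partly technical.

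With a single group there was no treatment, age or tissue to compare, and no p-value across animals exists. Values are given for replicate 1 and replicate 2 in that order, or as mean ± SD (n = 2). TPM is a transcript abundance corrected for transcript length and scaled to the same sum in each library, so TPM can be compared between genes of a library. Genes held 35592003 and 42105856 counts in the 2 libraries. The labelled tissue carried its defining genes, since the fibre markers Acta1, Ckm, Myh4, Mylpf and Ryr1 summed to 82672 and 87997 TPM and 3 of 4 heart markers (Nppa, Nppb, Myl7) were at 0 in both libraries. The fourth heart marker, the myosin gene Myh6, stood at 63.3 and 104 TPM. Neuronal markers summed to 1.78 and 3.12 TPM and lymphoid markers to 1.42 and 1.53 TPM. Schwann cell markers differed between the libraries at 185 and 514 TPM, fibro-adipogenic markers at 2117 and 3383 TPM, and smooth muscle and pericyte markers at 256 and 443 TPM. Red cell markers went the other way at 2051 and 1042 TPM, while endothelial markers (175 and 171 TPM) and macrophage markers (38.2 and 44.1 TPM) were closer. In whole muscle, fewer cells of a type and less RNA per cell cannot be told apart.

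In muscle, each contraction raises calcium in the fibre, and calmodulin passes this signal to a phosphatase and to kinases. Calcineurin is a dimer of a catalytic A subunit and the regulatory B subunit, and it removes phosphate from NFAT proteins, which then enter the nucleus. Sustained nerve activity works through this route in slow fibres, while CaMKII, a ring of many subunits from 4 genes, records the frequency of calcium pulses and acts on the calcium release machinery and on class IIa histone deacetylases. Rcan1 binds calcineurin and limits it, and is itself an NFAT target.

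All 10 genes were expressed, from Camk2a at 163 ± 16.4 TPM to Nfatc3 at 9.82 ± 1.28 TPM. Among 22015 nuclear protein-coding genes ranked by mean TPM, Camk2a stood at place 346, Ppp3r1 at 675 and Camk2b at 728, while Nfatc1 and Nfatc3 stood at 4175 and 4932. All 7 enzyme subunit genes lay above both NFAT genes in each library. The order of mean TPM was Camk2a, Ppp3r1, Camk2b, Ppp3ca, Camk2g, Ppp3cb, Camk2d, Rcan1, Nfatc1 and Nfatc3. In 2 pairs, neighbours did not differ beyond their spread: Ppp3r1 exceeded Camk2b by 5.24 TPM and Ppp3cb exceeded Camk2d by 5.65 TPM, both less than the larger SD of the pair, and the deposited intervals overlapped in replicate 2. The other 7 neighbouring pairs kept their order in both libraries without overlap of the deposited intervals, whose level is not given. A second deposited quantification, made directly from the reads, gave higher TPM for all 10, from 1.24 times for Ppp3r1 to 1.62 times for Ppp3ca. There Ppp3ca, at 101 and 110 TPM, moved to the second place, with 18.2 and 20.4 TPM of it on the non-coding transcript Ppp3ca-204.

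**Figure D1:**
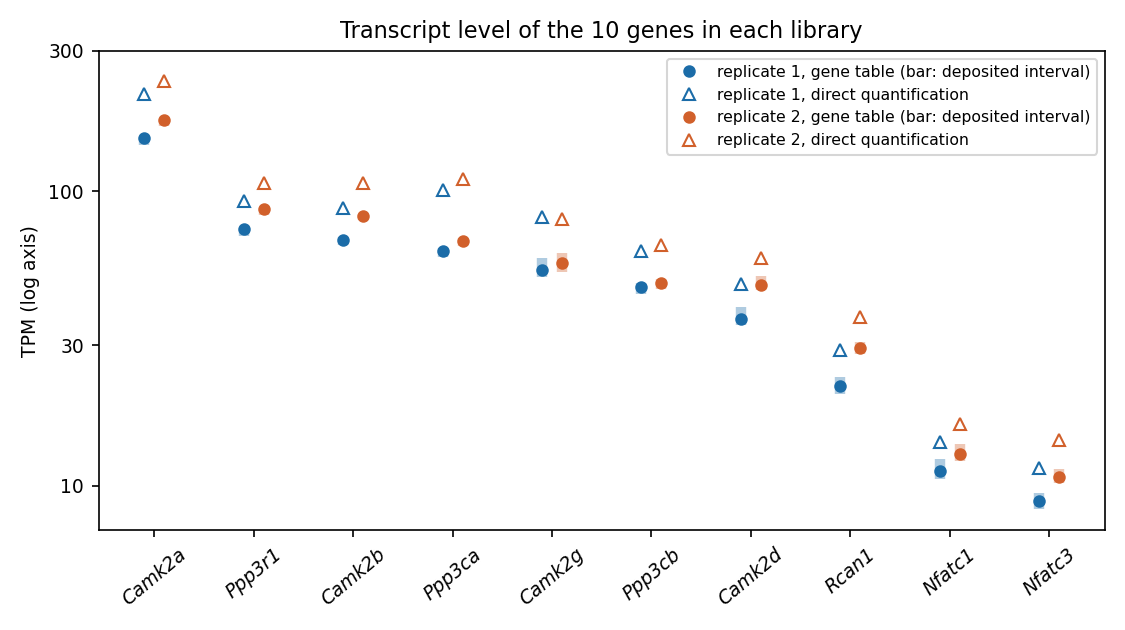
TPM of each gene on a log axis, with filled points for the gene tables, shaded bars for the deposited intervals and open triangles for the direct quantification, in replicate 1 (blue) and replicate 2 (orange). Camk2a lies above the other genes at 151 and 174 TPM, and Nfatc1 and Nfatc3 lie lowest, between 8.91 and 12.8 TPM in the gene tables.

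Camk2a (ENSMUSG00000024617.16; mm10 chromosome 18, 60925618 to 60988152, plus strand), which encodes the alpha subunit, held 10819 and 14403 counts and 151 and 174 TPM. It made up 48.7% and 48.2% of the summed TPM of the 4 CaMKII genes, a share that differed little between the libraries (48.4% ± 0.373). Camk2b (ENSMUSG00000057897.14; chromosome 11, 5969644 to 6066362, minus strand), the beta subunit gene, stood at 68.3 and 82.5 TPM, or 22.0% and 22.8% of the sum. Camk2g (ENSMUSG00000021820.18; chromosome 14, 20734875 to 20794088, minus strand), the gamma subunit gene, stood at 54.3 and 57.1 TPM, or 17.5% and 15.8%. Camk2d (ENSMUSG00000053819.16; chromosome 3, 126596302 to 126846326, plus strand), the delta subunit gene, stood at 36.9 and 48.3 TPM, or 11.9% and 13.3%. All 4 genes were thus present, with Camk2a first in each library.

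Most Camk2a transcripts by TPM were not kinase transcripts. The Camk2a gene also encodes alphaKAP, an anchoring protein of skeletal muscle that starts inside the gene, keeps the association domain by which subunits join, lacks the kinase domain and carries a membrane anchor. In the annotation Camk2a-204 and Camk2a-202 start 37.9 kb downstream of the first start of the gene, past 12 of the 18 coding exons of the full-length Camk2a-203. Those 12 exons hold 943 of its 1434 coding bases. Camk2a-204, with 600 coding bases, stood at 69.9 and 84.5 TPM and made up 46.2% and 48.4% of the gene. Camk2a-202, with 567 coding bases, stood at 22.7 and 21.5 TPM, or 15.0% and 12.3%. The full-length Camk2a-203 stood at 58.7 and 68.5 TPM, or 38.8% and 39.3%. Transcripts from the internal start therefore held 61.2% and 60.7% of the TPM of Camk2a, and 66.9% and 65.2% with the direct quantification. Being short, they held only 25.6% and 24.7% of its counts. Camk2a is also a major gene of neurons, and of 7 neuronal markers only Slc17a7 reached 1 TPM in both libraries, at 1.49 and 2.09 TPM. The internal and upstream classes cannot be assigned to a cell type from these bulk libraries. Camk2a-204 differs from Camk2a-202 in coding sequence by a 33-base exon, present in 46.2% and 48.4% of the TPM of the coding transcripts that span it.

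**Figure D2:**
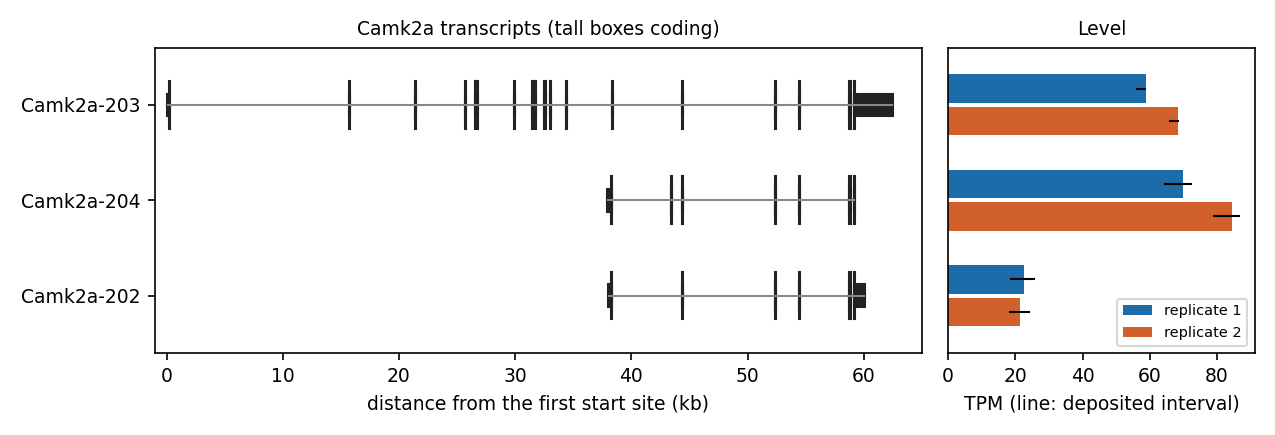
Left, exons of the 3 Camk2a transcripts that held at least 10% of the gene, as distance in kb from the first start (tall boxes coding, short exons drawn slightly wider than scale). Right, TPM of each in replicate 1 (blue) and replicate 2 (orange) with the deposited interval as a line. The short Camk2a-204, which begins at 37.9 kb, lies above the full-length Camk2a-203 in both libraries.

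Counting only transcripts with at least 1000 coding bases, long enough for a kinase, the order of the first 2 CaMKII genes by TPM turned. This count was chosen after the transcript values were seen. Camk2b then led with 66.7 and 81.0 TPM, or 36.5% and 38.3% of the sum, and Camk2a followed with 58.7 and 68.5 TPM, or 32.1% and 32.3%. Camk2g held 19.2% and 15.5%, and Camk2d 12.2% and 13.9%. The cut kept 97.8% and 98.3% of the TPM of Camk2b, but 64.8% and 57.4% for Camk2g and 60.3% and 61.2% for Camk2d. It also drops incomplete coding models such as Camk2g-209, so the shares depend on the annotation. The direct quantification gave the same order of the first 2, with 37.5% and 39.0% for Camk2b and 30.5% and 30.7% for Camk2a. By counts, which are not divided by length, Camk2a stayed first. Camk2a-203 alone held 8046 and 10845 counts, above the 6339 and 8914 of the whole Camk2b gene. The turn thus rested on the length correction.

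**Figure D3:**
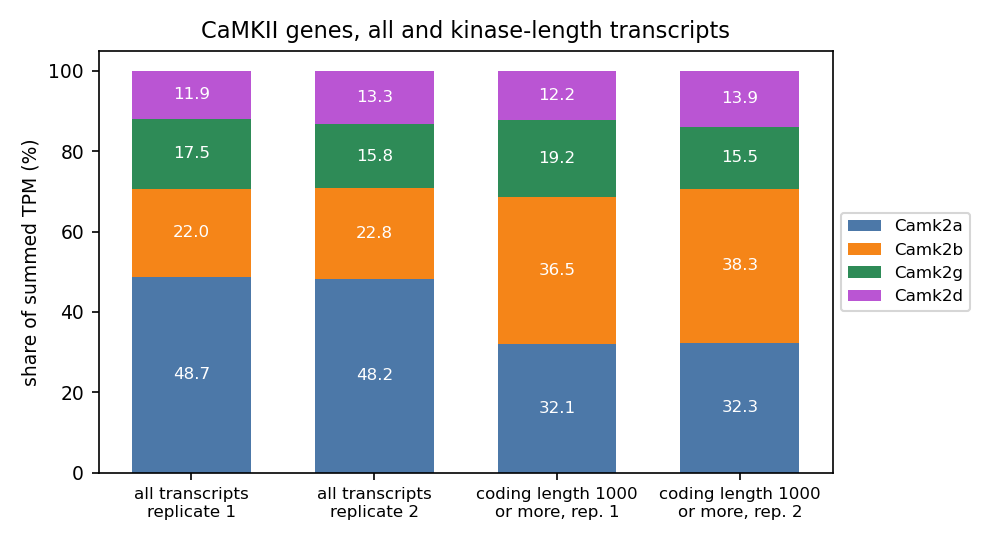
Share of the summed TPM of the 4 CaMKII genes in each library, over all transcripts (left pair of bars) and over transcripts with at least 1000 coding bases (right pair). Camk2a holds 48.7% and 48.2% on the left and 32.1% and 32.3% on the right, where Camk2b is the largest part at 36.5% and 38.3%.

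Camk2b carried a group of exons that the general forms lack. Camk2b-209, the leading transcript with 1626 coding bases, held 59.1% and 60.8% of the gene. Camk2b-202 followed at 18.3 and 21.1 TPM, or 26.8% and 25.6%, and has 1998 coding bases. The longer transcript has additional exons in the linker between kinase and association domains. A beta form of skeletal muscle with a proline-rich insert at this place is known. A pair of these exons, of 114 and 129 bases, is shown 5′ to 3′ in transcript order, from GENCODE M21 transcripts on mm10, with in-frame CCN codons, which encode proline, in capitals.
Camk2b exon of 114 bases (chr11:5978399-5978512, minus strand): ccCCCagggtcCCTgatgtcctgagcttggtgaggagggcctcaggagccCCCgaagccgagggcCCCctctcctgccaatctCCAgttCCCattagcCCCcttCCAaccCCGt
Camk2b exon of 129 bases (chr11:5977812-5977940, minus strand): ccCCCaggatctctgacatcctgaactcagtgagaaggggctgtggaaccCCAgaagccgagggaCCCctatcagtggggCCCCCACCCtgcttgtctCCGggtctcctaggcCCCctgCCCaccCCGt
In the 114-base exon 9 of 37 whole codons (24.3%) were CCN and in the 129-base exon 10 of 42 (23.8%), against 25 of 542 (4.61%) in the coding sequence of Camk2b-209. Among the coding transcripts that span them, the 114-base exon was in 27.4% and 26.0% of the TPM and the 129-base exon in 29.9% and 28.8%. The direct quantification gave 26.6% and 26.2% for the 114-base exon, so this minority form was measured alike by both methods.

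Camk2g was spread over more transcripts than the other CaMKII genes, with 6 at 10% or more of the gene in either library. The leading coding transcript Camk2g-202 held 33.1% and 29.3%, Camk2g-203 held 17.4% and 18.2% and Camk2g-201 held 14.4% and 9.88%. These 3 differ in a pair of exons of the variable linker. A 69-base exon was in 71.0% and 67.1% of the spanning TPM (67.3% and 68.9% with the direct quantification). A 33-base exon, the counterpart of the one in Camk2a, was in 21.1% and 17.4%, and in 33.1% and 34.8% with the direct quantification. This short exon is known in CaMKII genes for a nuclear localization signal that opens with basic residues. It is shown with in-frame lysine or arginine codons in capitals.
Camk2g exon of 33 bases (chr14:20747819-20747851, minus strand): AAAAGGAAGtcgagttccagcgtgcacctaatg
Of its 11 codons 3 were for lysine or arginine, all at its start, and it matched the Camk2a exon at 28 of 33 positions. Among the Camk2g coding transcripts that span its place, most by TPM lacked the exon under both quantifications. The incomplete coding model Camk2g-209 stood at 7.63 and 5.50 TPM. The non-coding Camk2g-215 and Camk2g-208 reached 10.9% and 12.0% and 0% and 11.6% of the gene, while the direct quantification gave both 0 counts and put 14.0 and 19.7 TPM on Camk2g-207. The Camk2g transcripts of short length were thus assigned differently by the 2 methods.

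Camk2d had 28 annotated transcripts, the most of the 10 genes, and 3 of them reached 10%. Camk2d-206 stood at 13.7 and 16.4 TPM, or 37.0% and 33.9%, and Camk2d-221 at 5.09 and 7.17 TPM, or 13.8% and 14.9%. The short retained-intron transcript Camk2d-217 held 31.1% and 34.3% of the TPM but only 168 and 279 counts. In these tables the leading transcript was Camk2d-206 in replicate 1 and Camk2d-217 in replicate 2, with shares in replicate 2 of 33.9% and 34.3%. Their deposited intervals overlapped in replicate 1 (8.39 to 13.4 and 8.66 to 13.2 TPM) and in replicate 2 (12.0 to 16.3 and 13.4 to 18.4 TPM). Neither library thus resolved a leader. The TPM of Camk2d-206 itself, at 13.7 and 16.4, lay just above the upper bound of its interval in both libraries. In the direct quantification Camk2d-206 led in both libraries, with 40.6% and 43.5% against 27.5% and 22.2% for Camk2d-217. Camk2d contains a pair of exclusive 73-base exons within the kinase domain. The upstream one was used by 77.1% and 75.7% of the spanning coding TPM and the downstream one by 22.9% and 24.3%. By the direct quantification the downstream one had 25.8% and 28.6%. The pair is shown with bases that match the other exon in capitals.
Camk2d upstream exon (chr3:126770785-126770857, plus strand): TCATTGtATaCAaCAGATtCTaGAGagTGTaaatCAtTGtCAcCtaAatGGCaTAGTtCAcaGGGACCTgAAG
Camk2d downstream exon (chr3:126771774-126771846, plus strand): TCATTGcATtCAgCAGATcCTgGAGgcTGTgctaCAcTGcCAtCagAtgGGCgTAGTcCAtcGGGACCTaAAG
They matched at 50 of 73 positions (68.5%). The linker of Camk2d also carried 2 small exons, shown in lower case because no part is singled out.
Camk2d linker exon of 60 bases (chr3:126805857-126805916, plus strand): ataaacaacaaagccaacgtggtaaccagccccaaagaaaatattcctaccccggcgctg
Camk2d linker exon of 42 bases (chr3:126808208-126808249, plus strand): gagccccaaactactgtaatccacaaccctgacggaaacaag
Both were in 85.4% and 92.9% of the spanning coding TPM, and the direct quantification gave 92.8% and 96.4%. The reading frame ended at the coding end of Camk2d-206 in 60.5% and 54.0% of the TPM of complete coding transcripts, and at that of Camk2d-221 in 35.6% and 42.2%. Camk2d-228 stood at 0.270 and 3.87 TPM, with deposited intervals of 0.0394 to 2.50 and 1.81 to 6.16 TPM. The direct quantification also had it lower in replicate 1, at 0.0238 and 1.69 TPM, and the difference was not tested.

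Ppp3r1 (ENSMUSG00000033953.10; chromosome 11, 17159263 to 17200375, plus strand), the gene of the regulatory B subunit, was the highest calcineurin gene in the gene tables at 74.3 and 86.9 TPM. In the direct quantification it lay at 92.4 and 107 TPM, below Ppp3ca in both libraries. There the Ppp3ca level included 18.2 and 20.4 TPM of the non-coding Ppp3ca-204. Ppp3ca transcripts from the first start, with both main coding forms among them, summed to 82.6 and 89.2 TPM, below Ppp3r1. Ppp3r1 was also the simplest of the 10, since Ppp3r1-201 alone held 99.3% and 99.4% of it. Ppp3ca (ENSMUSG00000028161.17; chromosome 3, 136670124 to 136937727, plus strand), the alpha catalytic subunit gene, stood at 62.6 and 68.0 TPM. Ppp3cb (ENSMUSG00000021816.11; chromosome 14, 20499364 to 20546573, minus strand), the beta catalytic subunit gene, stood at 47.4 and 49.0 TPM. Ppp3ca thus held 56.9% and 58.1% of the sum of both (57.5% ± 0.871), and was the higher in each library. The catalytic genes together stood at 110 and 117 TPM, 1.48 and 1.35 times the level of Ppp3r1.

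Both catalytic genes have an optional 30-base exon near the end of the coding sequence, and these exons are close copies. They are shown with bases shared by both in capitals.
Ppp3ca exon (chr3:136932011-136932040, plus strand): CtACtGTTGAGGCTATTGAGGCTGAtgAAG
Ppp3cb exon (chr14:20503247-20503276, minus strand): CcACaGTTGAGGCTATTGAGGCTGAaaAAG
They matched at 26 of 30 positions (86.7%). In Ppp3ca the exon was in 52.0% and 49.2% of the coding TPM, carried by Ppp3ca-201 (32.3 and 33.0 TPM) against Ppp3ca-202 without it (29.8 and 34.1 TPM). It was in 50.0% and 47.1% with the direct quantification, so the 2 forms were near parity by TPM. The leading one changed between the libraries. By counts, which are not divided by length, Ppp3ca-202 led in both, with 3900 and 5168 against 1903 and 2250 for Ppp3ca-201. The near parity thus rested on the length correction. The direct quantification also placed 18.2 and 20.4 TPM on the non-coding Ppp3ca-204, which the transcript tables list at 0 and 0.200 TPM. In Ppp3cb the exon was in 84.8% and 85.3% of the coding TPM that spans it in the transcript tables. With the direct quantification it was in 62.1% and 59.7%. The Ppp3cb share was above the Ppp3ca share in both libraries and both quantifications, but its size depended on the method.

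The leading Ppp3cb transcript, Ppp3cb-205, held 63.4% and 59.2% of the gene, Ppp3cb-201 held 13.5% and 12.6% and Ppp3cb-202 held 11.7% and 13.6%. Ppp3cb had a further pair of choices. An exon of 82 or 85 bases is cut at acceptors 3 bases apart, and the shorter form was in 68.5% and 66.1% of the coding TPM. With the direct quantification it was in 43.5% and 41.3%, so which form led was not settled. Ppp3cb-206 reads through into the following intron and ends early, which is the structure of a known form of the beta subunit that lacks the autoinhibitory end. It stood at 1.90 and 2.11 TPM, or 4.33% and 4.80% of the complete coding transcripts, and 4.25% and 4.68% with the direct quantification.

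The NFAT genes were low. Nfatc1 (ENSMUSG00000033016.16; chromosome 18, 80606205 to 80713071, minus strand), known in muscle as a sensor of nerve activity, held 1415 and 1872 counts and 11.2 and 12.8 TPM. Nfatc3 (ENSMUSG00000031902.10; chromosome 8, 106058840 to 106130537, plus strand), another calcineurin-dependent factor expressed in muscle, held 1360 and 1925 counts and 8.91 and 10.7 TPM. Nfatc1 was 1.26 and 1.20 times as high as Nfatc3 by TPM. By CPM, counts scaled for depth and not divided by length, the ratio was 1.04 and 0.972, so the order rested on the length correction.

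Nfatc1 was transcribed from both of its known starts, 4898 bases apart, the upstream of which is known in lymphocytes as the one that NFAT itself induces. Transcripts of the upstream start held 46.6% and 51.7% of Nfatc1 TPM and those of the downstream start 53.4% and 48.3%. For the downstream start the direct quantification had 61.6% and 54.1%. The coding ends also varied. The short form, which ends earliest, held 17.8% and 15.7%, the middle form 45.6% and 51.7% and the longest form 36.5% and 32.6% of complete coding TPM, and the direct quantification gave 19.5% and 17.8% for the short form. Single transcripts were not well resolved, since the leading one was Nfatc1-202 in the transcript tables, at 5.12 and 6.64 TPM, and Nfatc1-203 in the direct quantification, at 5.43 and 5.58 TPM. Nfatc1-201 held 16.8% and 15.8% of the gene in the transcript tables and none of it in the direct quantification, which had 19.5% and 17.8% on Nfatc1-206 in its place. The deposited interval of Nfatc1-203 ran from 1.02 to 4.41 TPM in replicate 1. Nfatc3 was simpler, with Nfatc3-201 at 82.6% and 84.8% and Nfatc3-202, which has another coding end, at 12.5% and 13.3%.

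Rcan1 (ENSMUSG00000022951.16; chromosome 16, 92391953 to 92470867, minus strand), the feedback inhibitor of calcineurin, held 1290 and 2034 counts and 21.9 and 29.5 TPM. It lay above both NFAT genes and at 0.295 and 0.339 times Ppp3r1. The gene has 2 main starts, 66.1 kb apart. The upstream start gives Rcan1-202, with a first coding exon of 246 bases, and the internal start gives Rcan1-201, with a first coding exon of 87 bases, followed by the same 3 coding exons. The internal start is the one known to be induced by calcineurin and NFAT. The 250 bases before each start are shown, from the RefSeq promoter table for GRCm38.p6, with the NFAT core GGAAA or its reverse complement TTTCC in capitals.
Rcan1 internal start (chr16:92400079-92400328, minus strand): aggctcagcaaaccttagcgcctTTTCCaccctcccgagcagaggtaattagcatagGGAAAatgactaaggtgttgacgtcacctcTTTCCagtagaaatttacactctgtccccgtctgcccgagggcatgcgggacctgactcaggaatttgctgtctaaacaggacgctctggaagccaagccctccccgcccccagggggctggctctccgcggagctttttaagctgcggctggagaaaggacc
Rcan1 upstream start (chr16:92466170-92466419, minus strand): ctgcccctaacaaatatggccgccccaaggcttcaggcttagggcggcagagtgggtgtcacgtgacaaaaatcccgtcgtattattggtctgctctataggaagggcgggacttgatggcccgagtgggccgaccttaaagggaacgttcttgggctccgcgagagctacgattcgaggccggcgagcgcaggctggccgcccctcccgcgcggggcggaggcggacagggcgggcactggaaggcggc
On both strands together the internal window held 3 of these motifs and the upstream window 0. At least 3 occurred in 6.39% of the 32851 promoter windows of this length, and at least 1 in 55.6%. Of the other members, 5 had a window in the table. Ppp3cb held 3 GGAAA motifs, Camk2d 1, Camk2b and Ppp3r1 0, and the pair of Nfatc3 windows 1 and 0. A match of 5 letters is a description of the sequence and not a bound site.

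Which Rcan1 start was used could not be settled from these files. In the transcript tables Rcan1-201, from the internal start, led with 14.0 and 19.7 TPM, and transcripts of that start held 64.0% and 67.1% of the gene. Rcan1-202, from the upstream start, stood at 7.14 and 9.48 TPM. The deposited intervals of these 2 transcripts did not overlap in either library. The direct quantification gave Rcan1-202 22.9 and 30.8 TPM and 79.3% and 82.1% of the gene, and Rcan1-201 under 1 estimated count in both libraries. It placed a further 16.6% and 17.0% on Rcan1-203, which the transcript tables list at 0. The 2 methods agreed on the gene total, at 1.29 times the gene table by the direct quantification, within the range of the other members, and disagreed on the transcript. The cause was not tested.

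**Figure D4:**
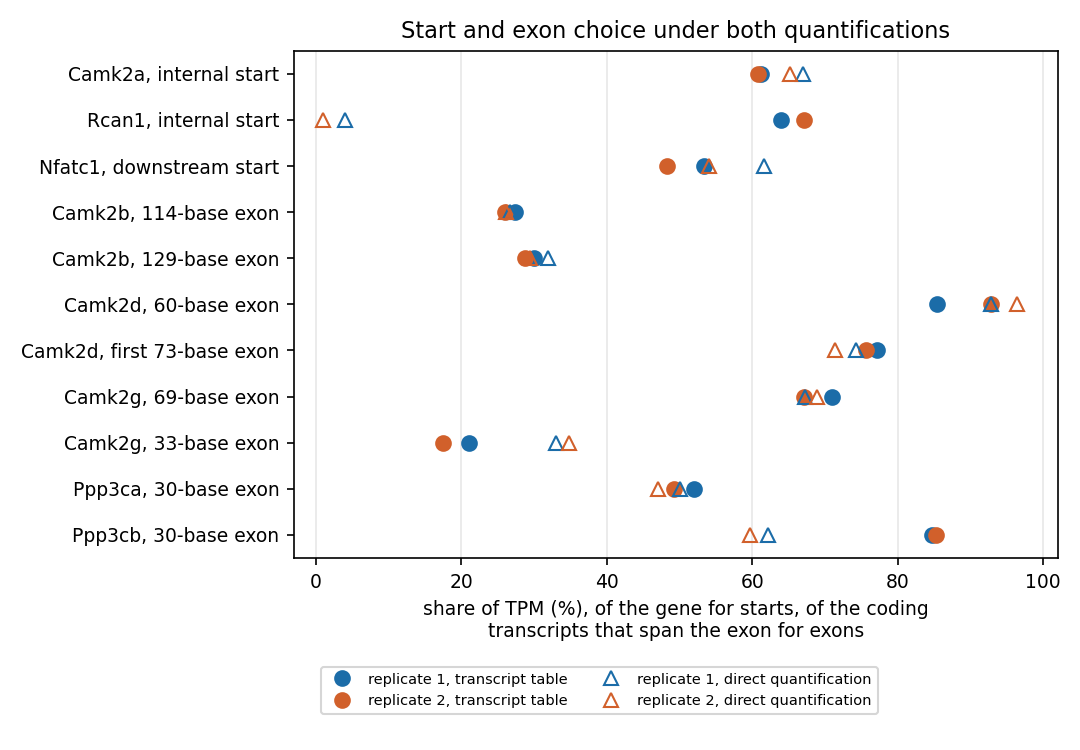
Share of TPM in percent held by transcripts of the named start (of the gene) or with the named exon (of the coding transcripts that span it), in the transcript tables (filled points) and the direct quantification (open triangles), replicate 1 in blue and replicate 2 in orange. The Camk2b, Ppp3ca and Camk2a points lie close together, whereas the Rcan1 internal start lies at 64.0% and 67.1% against 4.07% and 0.929%, and the Ppp3cb exon at 84.8% and 85.3% against 62.1% and 59.7%.

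In the transcript tables the most abundant transcript was the same in both libraries for 8 of the 10 genes, the exceptions being Camk2d and Ppp3ca. In both exceptions the deposited intervals of the leading transcripts overlapped in each library. The direct quantification also gave 8, with Camk2g and Ppp3ca as the exceptions. It was the same in both libraries and both quantifications for 5 genes, Camk2a, Camk2b, Ppp3cb, Ppp3r1 and Nfatc3. Of the 107 annotated transcripts of the 10 genes, 27 reached 10% of their gene in either library, and 24 of these were coding.

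The 2 libraries differed little in these genes. For each gene the log2 ratio of replicate 2 over replicate 1 was taken from counts scaled for library size and composition with TMM, with an exact binomial 95% interval that covers counting error only. With 1 library on each side this compares those libraries and has no replicate check. No gene of the 10 differed by 1.5-fold or more in either direction. Over all 15734 genes with a summed count of at least 20 the share past that fold was 13.6% (7.98% higher and 5.64% lower in replicate 2), and over the 6323 genes with a summed count of at least 1000, as all 10 have, it was 4.93%. The count of 0 among 10 is therefore near what all genes of such depth give. The largest ratios were Rcan1 at 0.29 (0.19 to 0.39) and Camk2d at 0.24 (0.17 to 0.31), both higher in replicate 2, and Camk2g at -0.24 (-0.30 to -0.18) and Ppp3cb at -0.14 (-0.21 to -0.08), both lower, although on spike-in totals Ppp3cb turned to 0.08. Nfatc3 and Camk2b gave 0.13 and 0.12, Ppp3r1, Camk2a and Nfatc1 0.06, 0.04 and 0.03, and Ppp3ca -0.02, which turned to 0.20 on spike-in totals and 0.11 on total counts. Spike-in totals moved the median of all tested genes to 0.23 and total counts moved it to 0.14. The interval lay above 0 for 6 genes, below 0 for 2 and across 0 for Ppp3ca and Nfatc1. Over all tested genes the interval left out 0 for 38.3%, and over those with a summed count of at least 1000 for 56.9%. The median over the 10 was 0.05, beside 0.01 over all tested genes and -0.02 over those with a summed count of at least 1000. The Schwann, fibro-adipogenic and smooth muscle marker sums were also higher in replicate 2, and their part in the ratios of Rcan1 and Camk2d was not tested. TPM of the gene tables, which is scaled differently and corrected for length, was higher in replicate 2 for all 10 genes. In the direct quantification Camk2g was the exception, at 82.1 and 80.6 TPM.

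**Figure D5:**
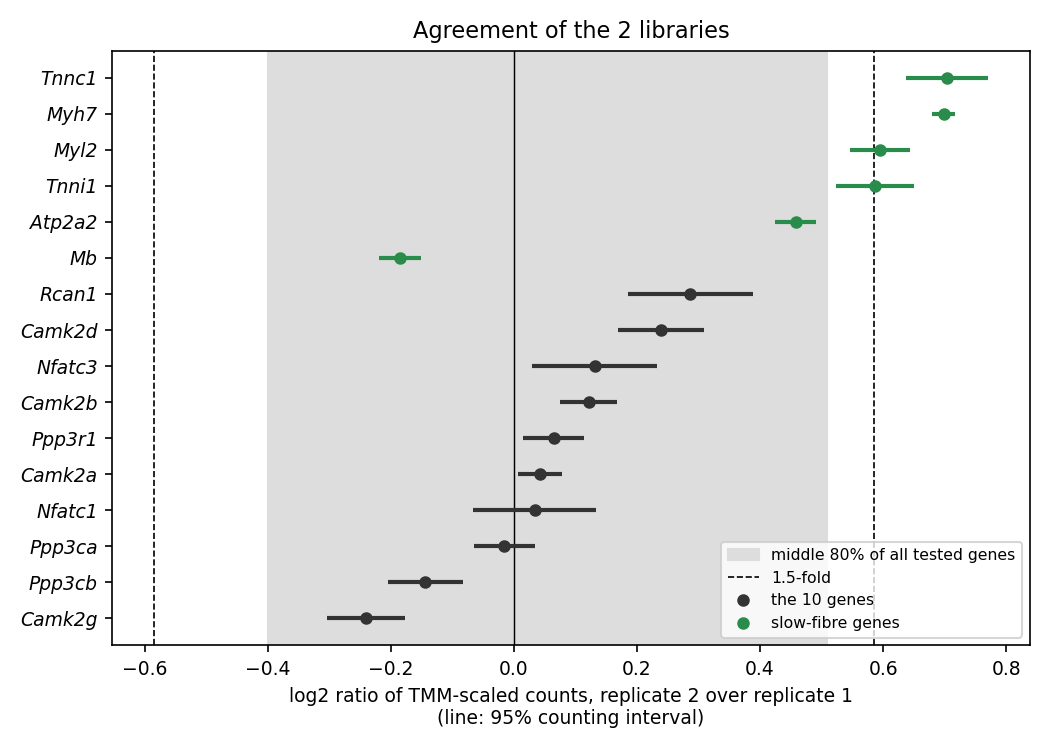
Log2 ratio of TMM-scaled counts, replicate 2 over replicate 1, for the 10 genes (black) and 6 slow-fibre genes (green), with the 95% counting interval as a line, the middle 80% of all tested genes shaded and 1.5-fold dashed. The 10 genes lie between -0.24 and 0.29, inside the shaded band, while Tnnc1 and Myh7 lie at 0.70. For genes with a summed count of at least 1000, as all 10 have, the middle 80% is narrower, from -0.32 to 0.26. Rcan1 lies above that range.

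Of 46 other genes of the pathway, 38 reached 1 TPM in both libraries. Calm3 and Calm2, which encode calmodulin, the calcium sensor of both enzymes, stood at 105 and 135 TPM and 82.8 and 122 TPM. Each lay above every member but Camk2a in each library by the gene tables. The remaining calcineurin subunit genes were low, with Ppp3cc, the gamma catalytic subunit, at 3.72 and 3.42 TPM and Ppp3r2, the B subunit of testis, at 0 and 1 counts. Nfat5, an NFAT relative that calcineurin does not control, stood at 7.71 and 8.19 TPM, Nfatc2 at 3.12 and 3.64 TPM and Nfatc4 at 3.00 and 3.61 TPM. By TPM, which is corrected for length, Nfatc1 and Nfatc3 were the highest NFAT genes in both libraries, whereas Nfat5 had more counts than either, at 1856 and 2191.

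Of 10 further calcineurin regulators 9 reached 1 TPM in both libraries. The calsarcin genes Myoz1 and Myoz2, whose products tie calcineurin to the Z-disc, stood at 1017 and 968 TPM and 183 and 182 TPM, and Myoz3 at 26.4 and 31.3 TPM. Ppia and Fkbp1a, which encode the binding proteins of the calcineurin-blocking drugs ciclosporin and tacrolimus, stood at 170 and 249 TPM and 91.9 and 110 TPM, and Ppia shares reads with other genes. Rcan2 stood at 13.3 and 9.97 TPM and Rcan3 at 2.72 and 3.29 TPM, so Rcan1 was the highest Rcan gene. Chp1 stood at 27.9 and 26.0 TPM, Cabin1 at 5.24 and 4.68 TPM and the anchor gene Akap5 at 0.630 and 0.720 TPM.

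Other calmodulin kinases and the CaMKII inhibitors were low, and 4 of 10 reached 1 TPM in both libraries. Camk1 led at 13.4 and 15.5 TPM, followed by Pnck at 7.07 and 7.93 TPM and Camkk2 at 2.64 and 4.30 TPM. Camk4, a kinase of neurons and lymphocytes, stood at 0.190 and 0.320 TPM, and Camk1g and Camkv had 5 to 7 counts. The CaMKII inhibitor gene Camk2n1 stood at 1.94 and 2.22 TPM and Camk2n2 at 0.510 and 0.800 TPM. Camk1d and Camkk1 differed by 1.5-fold or more, with 77 and 168 and 36 and 96 counts, and both were higher in replicate 2, with 8 of the 10 genes deep enough to be tested and 7.98% of all tested genes past the fold in that direction. Their intervals, 0.36 to 1.16 for Camk1d and 0.48 to 1.64 for Camkk1 on the log2 scale, reach below 1.5-fold. Camk4, Camk2n2 and Camkk2 joined them on spike-in totals, and the former pair on total counts. The 5 kinases that return NFAT to the cytoplasm all reached 1 TPM, with Csnk1a1 at 90.2 and 103 TPM, Dyrk2 at 26.4 and 36.1, Dyrk1a at 28.3 and 32.3, Gsk3a at 22.1 and 25.1 and Gsk3b at 22.9 and 23.0 TPM. Of the factors downstream of CaMKII, Mef2c stood at 129 and 169 TPM, Mef2d at 63.0 and 66.9 and Mef2a at 32.4 and 34.0 TPM. The class IIa deacetylases that restrain them stood at 28.5 and 29.0 TPM for Hdac5, 18.4 and 19.9 for Hdac4, 9.33 and 8.88 for Hdac7 and 1.83 and 2.52 TPM for Hdac9.

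Slow-fibre genes, which calcineurin and NFAT are known to favour, mostly gave larger ratios between the libraries than the signalling genes. Of the 6 listed, 4 passed 1.5-fold, all higher in replicate 2, beside 7.98% of all tested genes passing it in that direction. Myh7, the slow myosin heavy chain, stood at 288 and 528 TPM and gave a log2 ratio of 0.70 (0.68 to 0.72). Tnnc1, slow troponin C, stood at 153 and 279 TPM and gave 0.70 (0.64 to 0.77). Myl2 and Tnni1 gave 0.60 and 0.59, both with intervals that reach below 1.5-fold, and Tnni1 fell just short of it with DESeq2 size factors. Atp2a2, the slow calcium pump, gave 0.46 and passed the fold on spike-in totals and total counts, and Mb, myoglobin, gave -0.19 at 559 and 563 TPM. The calcineurin genes gave -0.14 to 0.06 in the same comparison, Nfatc1 0.03, Nfatc3 0.13 and Rcan1 0.29. The CaMKII genes gave -0.24 to 0.24. These are 2 libraries, so no relation between the signalling genes and the slow-fibre genes could be measured.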

How the data were processed

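Total RNA of 2 gastrocnemius libraries (300 ng each, with ERCC spike-ins) was analysed from the tables the authors deposited. Per the file headers, expected counts and TPM per gene or transcript come with a posterior mean TPM, an interval of unstated level, a posterior standard deviation of the count and an isoform percent. Another transcript table the authors deposited has its own estimated counts and TPM. The deposited notes name mm10, GENCODE M21, and transcriptome alignments for the former tables and reads for the latter, here the direct quantification. Which aligner and quantifiers were used is not given in the sources used here. Strand use in counting was not stated. The reference is of C57BL/6J, and any lower count for reads from CAST/EiJ chromosomes was not measured.

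All 55536 gene identifiers matched GENCODE M21, and 26249 rows that name no gene, with 2 and 0 counts, were left out, as were 96 spike-ins. Direct TPM was summed per gene. Starts over 1000 bases apart were separate, and an exon's share is of the TPM of coding transcripts that span it. A share from transcript models is an estimate, since junction reads were not used here. Expected counts were rounded, and edgeR 4.0.16 gave TMM factors of 0.957 and 1.05, with DESeq2 1.42.0 size factors, spike-in totals and total counts as alternatives. Log2 ratios used a prior count of 0.5 and exact binomial 95% intervals. These were tested only on simulated counts with counting error alone and the scaling known. That checks the calculation and not the spread between real libraries. A quasi-likelihood test in edgeR would leave no residual degrees of freedom for 1 library against 1, so a fold of 1.5 was used with no p-value. PCR reads without molecular identifiers are not independent molecules, and intervals cover counting error only. At the gene level the deposited posterior standard deviation was below 0.05% of the count for all 10 genes. A gene was said to share reads where it exceeded 1%.

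The members and lists were chosen with earlier results of these data known. The text names all members, their transcripts at 10% or more and the genes of the pathway lists, 1 of which is not reported here. Other transcripts and exons, among them Ppp3cb-206, Camk2d-228, Rcan1-203 and Camk2g-207, and the genes in the tissue check were named after their values were seen or as set markers. Software was matplotlib 3.10.9, scipy 1.17.1, numpy 2.4.6, pandas 2.3.3, Python 3.11.15 and R 4.3.3.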

Additional observations from a re-analysis of the deposited data

How the results depend on the processing

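The Camk2a share of the CaMKII genes (48.4%) was 49.3% with the direct quantification, 47.8% with posterior mean TPM, 45.5% from CPM, which is not divided by length, and 32.2% over transcripts with at least 1000 coding bases, the last chosen after seeing the data. It was 48.2% to 48.7% with either replicate left out. The Ppp3ca share (57.5%) was 62.3% with the direct quantification and 60.4% from CPM, and 56.9% to 58.1% with either replicate left out. The direct Ppp3ca level included 18.2 and 20.4 TPM of the non-coding Ppp3ca-204. The log2 ratio of Nfatc3 over Nfatc1 (-0.30) was -0.23 with the direct quantification, -0.0085 from CPM and -0.33 to -0.26 with either replicate left out. No member passed 1.5-fold with DESeq2 size factors, spike-in totals, total counts or the direct quantification. A 2-fold cut, no filter on low counts and a prior count of 2 were also run, but these could not add a member and are no check. The leading transcript was the same in both libraries for 8 members under each quantification (not the same 8, and 5 had 1 leading transcript throughout). The 38 pathway genes at 1 TPM became 41 at 0.5 TPM. Scaling on spike-ins moved the median log2 ratio of all tested genes to 0.23 and total counts moved it to 0.14, and Ppp3cb then turned from -0.14 to 0.0763 on spike-ins. No paired analysis was possible because there is a single group. The deposited intervals of several Camk2d, Camk2g and Nfatc1 transcripts are wide, and the cause was not tested.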

Other observations

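Ppp3cb and Camk2g lie 188 kb apart on the same strand of chromosome 14. They were also the 2 members with a log2 ratio below 0 whose interval did not reach it, at -0.14 and -0.24. On spike-in totals Ppp3cb gave 0.08 and Camk2g -0.02. With 2 libraries no test of a shared change exists.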
